A study of Mus musculus with 2 samples.

Results

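The cytochrome P450 enzymes were examined in perigonadal WAT of PeriA Tg and WT mice, 1 Affymetrix mouse genome array for each genotype. The genes were chosen by name: every symbol made of Cyp, a number, a letter and a number, together with *Por*, taken from probe sets that the platform annotation gives to 1 symbol alone. This gave 70 Cyp genes on 93 probe sets, among 18193 genes on 34945 such probe sets. No probe set is listed for *Por*, the reductase that passes electrons to the microsomal P450s, or for *Cyp19a1*, the aromatase that makes estrogens, and neither was analysed here. All mice were female, C57BL/6 and 30 weeks old, were fed the HFD and had food withdrawn the night before dissection. Tg mice were heterozygous for human PeriA under the aP2 promoter/enhancer, which is active in adipocytes, and WT mice were littermates without the transgene. RNA of 3 mice was pooled for each array, so that there are no replicates, no error over mice and no test, and every difference below compares these 2 arrays only.

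P450s are haem proteins that use oxygen and electrons to hydroxylate or epoxidise fatty acids, sterols, steroids, vitamins and foreign compounds. Most are bound to the endoplasmic reticulum and receive electrons from the reductase encoded by *Por*. A smaller set in mitochondria receives them from ferredoxin. Many members of the large Cyp2, Cyp3 and Cyp4 families are most abundant in liver, whereas fat tissue is known for *Cyp2e1*, *Cyp1b1* and *Cyp4b1*. The proximal promoters of 5 members are printed here, chosen as follows. Among members that passed the signal filter described below, *Cyp2e1* and *Cyp2f2* had the largest signal log ratios in the Tg direction. *Cyp2c70* was among the lowest of these members, and *Cyp1a1* and *Cyp1b1* are textbook targets of the aryl hydrocarbon receptor. Each run holds the 250 bases before the start site from RefSeq (GRCm38.p6), 5′ to 3′ on the strand of the gene. Capitals mark GCGTG, the core of the site bound by the aryl hydrocarbon receptor, and the TATA motif TATAAA, each searched on both strands, and the marked motifs do not overlap. They lie at chr7:140763569-140763818 (plus strand) for *Cyp2e1*, chr7:27119705-27119954 (plus) for *Cyp2f2*, chr19:40187287-40187536 (minus) for *Cyp2c70*, chr9:57697363-57697612 (plus) for *Cyp1a1* and chr17:79715062-79715311 (minus) for *Cyp1b1*.
Cyp2e1: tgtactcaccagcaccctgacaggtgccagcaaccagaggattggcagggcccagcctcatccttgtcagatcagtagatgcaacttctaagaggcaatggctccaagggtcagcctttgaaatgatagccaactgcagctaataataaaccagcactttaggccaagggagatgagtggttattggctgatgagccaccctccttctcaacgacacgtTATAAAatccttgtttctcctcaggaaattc
Cyp2f2: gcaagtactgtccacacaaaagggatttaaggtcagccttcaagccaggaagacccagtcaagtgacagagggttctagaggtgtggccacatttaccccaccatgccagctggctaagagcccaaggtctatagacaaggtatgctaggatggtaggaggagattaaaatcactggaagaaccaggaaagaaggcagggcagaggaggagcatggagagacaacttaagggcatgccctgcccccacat
Cyp2c70: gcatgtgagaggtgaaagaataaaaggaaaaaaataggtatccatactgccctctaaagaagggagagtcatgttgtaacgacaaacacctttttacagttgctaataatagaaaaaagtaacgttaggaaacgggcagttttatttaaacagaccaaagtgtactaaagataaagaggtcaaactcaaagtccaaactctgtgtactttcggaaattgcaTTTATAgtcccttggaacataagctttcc
Cyp1a1: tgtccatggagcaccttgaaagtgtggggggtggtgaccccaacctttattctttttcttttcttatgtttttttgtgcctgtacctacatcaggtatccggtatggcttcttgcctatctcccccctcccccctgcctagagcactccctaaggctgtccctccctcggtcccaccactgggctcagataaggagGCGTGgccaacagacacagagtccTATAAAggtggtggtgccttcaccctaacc
Cyp1b1: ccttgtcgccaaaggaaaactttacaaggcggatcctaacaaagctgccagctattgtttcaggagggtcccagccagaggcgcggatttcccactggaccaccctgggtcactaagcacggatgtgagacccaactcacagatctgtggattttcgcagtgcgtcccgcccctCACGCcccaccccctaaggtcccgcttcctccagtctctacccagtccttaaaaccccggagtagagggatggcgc

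*Cyp2e1* held TATAAA at position -31, counted back from the start site, *Cyp1a1* at -30 and *Cyp2c70* at -29 on the other strand. *Cyp1a1* held GCGTG at -54 and *Cyp1b1* at -76 on the other strand. Over all 32851 promoters of this table, windows of the same length held GCGTG in 28.2% and TATAAA in 12.4%. Of 20 members that passed the signal filter described next, 17 had 1 promoter entry each. GCGTG was present in 7 of these 17 and TATAAA in 3. *Cyp46a1* held GCGTG 4 times, more than any other of the 17. *Cyp2c23*, *Cyp2d22* and *Cyp7b1* had no entry in the table used.

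The deposited signals are on a linear scale, and the signal log ratio is the log2 of the Tg signal over the WT signal. Genes with several probe sets are represented by the brightest one, by mean log2 signal. To pass the signal filter, a gene needed at least 1 signal of 98.2 or more, the median over both arrays. Of the 70 Cyp genes, 20 passed: 17 were above the median on both arrays, *Cyp46a1* and *Cyp2r1* on the WT array alone, and *Cyp2f2* on the Tg array alone. The share that passed was 28.6%, against 63.7% of all genes. Just inside the filter lay *Cyp2r1*, with a higher signal of 100.6, and just outside it *Cyp2u1* with 95.2 and *Cyp2d13* with 94.6. The medians of the arrays themselves were 101.1 in WT and 95.4 in Tg.

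Of the 20 members that passed, 4 had a signal log ratio over 0.3, the threshold of the methods, against 16.6% of the 11587 genes that passed. These were *Cyp2f2*, *Cyp2e1*, *Cyp2s1* and *Cyp1b1*. Under -0.3 were 5 members, against 16.9% of all genes that passed: *Cyp2c23*, *Cyp2c70*, *Cyp4f13*, *Cyp4f18* and *Cyp46a1*. The other 11 lay between. As shares, 20% of the members were over 0.3 and 25% under -0.3, which is 1 or 2 genes above the shares of all genes. The median of the 20 was 0.06, and that of all genes that passed was 0.02. Past a 2-fold change, *Cyp2f2* was over 1, against 1.02% of all genes, and *Cyp2c23* was under -1, against 1.87%. Of the members counted above, *Cyp2f2* passed the filter through its Tg signal alone and *Cyp46a1* through its WT signal alone. The direction of both was thus fixed by the filter. When each array was divided by its own median signal, an alternative added with the values already known, 6 members were over 0.3, against 24.9% of all genes, and 5 under -0.3, against 13.03%, and the median of all genes was 0.11.

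**Figure D1:**
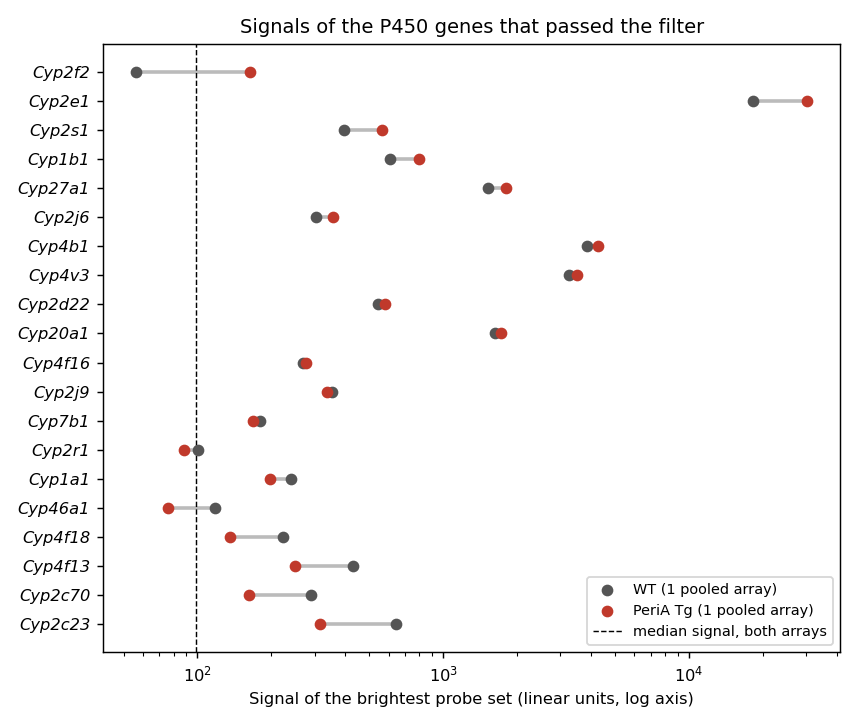
Signals of the brightest probe set on a log axis for the 20 P450 genes that passed the filter, ordered by signal log ratio, with 1 point for the WT array, 1 for the Tg array and a line joining them. The dashed line is the median signal of both arrays, 98.2. *Cyp2f2* lies above it in Tg alone, *Cyp46a1* and *Cyp2r1* in WT alone, and *Cyp2e1* lies far to the right.

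Among CYP2 enzymes outside the CYP2C and CYP2J subfamilies and without *Cyp2r1*, which is given with the vitamin D enzymes, 4 of 18 passed, and their signal log ratios ran from 0.09 to 1.54. *Cyp2e1*, which oxidises ethanol, acetone and fatty acids, gave 18170 for WT and 30241 for Tg, for a signal log ratio of 0.73 (1.66-fold). The Tg array was thus clearly the higher of the pair, at a brightness where ratios were narrow: of 475 genes with a mean log2 signal over 13, the median was 0.06, 35 were over 0.3 and *Cyp2e1* ranked behind only *Ces1d* and *Chchd10*. It has a single listed probe set.

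*Cyp2f2*, known as a naphthalene-metabolising enzyme of the airway, gave 56.4 for WT and 164.3 for Tg, that is a signal log ratio of 1.54 (2.91-fold). It passed the filter through its Tg signal alone, so that a positive value was bound to result. With a pseudocount of 25.1 added to both signals, its log2 ratio was 1.22. *Cyp2s1*, a P450 of epithelia outside the liver, had 395.2 in WT and 562.8 in Tg (0.51), above the median on both arrays. *Cyp2d22*, the mouse gene most often set beside human CYP2D6, gave 544.6 for WT against 581.3 for Tg (0.09), and the second probe set had 0.06.

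These differences stand beside markers of brown adipocytes that also differed between the arrays. All 5 markers examined, *Ucp1*, *Cidea*, *Elovl3*, *Cox7a1* and *Cox8b*, were over 0.3, and their summed signal was 4477 in WT and 24205 in Tg. *Elovl3* had 61.5 in WT and 523.7 in Tg. It passed the filter through its Tg signal alone, so that a positive value was bound to result. The paper lists *Ucp1*, *Cox7a1* and *Cox8b* as higher in Tg from this array pair, and their values here repeat that reading. The 6 adipocyte markers, *Adipoq*, *Fabp4*, *Cidec*, *Lipe*, *Pnpla2* and *Lpl*, all passed the filter with signals of at least 5629 on both arrays. Their median signal log ratio was 0.07, with *Lipe* (0.53) over 0.3 and the other 5 between -0.3 and 0.3. *Cidec* (0.04) and *Lpl* (0.03) were thus not lower on the Tg array. By real-time PCR, the paper reports the mRNA of *Cidec* and of *Lpl* as lower in WAT of Tg mice. The cause of this difference between array and PCR was not tested. The part of brown adipocyte content in the P450 values was not tested, and in whole tissue, more or fewer cells of a type and more or less RNA per cell cannot be told apart.

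In the CYP2C and CYP2J subfamilies, whose members epoxidise arachidonic acid or act on drugs and bile acids, 4 of 16 passed, with none over 0.3. *Cyp2c23*, an epoxygenase of kidney and endothelium, gave 639.9 for WT and 316.2 for Tg, or -1.02, the lowest signal log ratio of all members that passed. Its single probe set carries the suffix for sequences shared between transcripts, so that a related transcript could contribute to both signals. *Cyp2c70*, which in mouse liver makes muricholic acids, had 290.5 in WT and 162.5 in Tg (-0.84). *Cyp2j6* had 302.7 in WT against 357.4 in Tg (0.24), the second probe set giving 0.01. *Cyp2j9* had 353.6 in WT and 336.0 in Tg (-0.07). The CYP2C members that passed were thus both lower in Tg, whereas both CYP2J members lay within the threshold. Endothelial markers, given because *Cyp2c23* is made in endothelium, had a median of -0.08 over 6 of 6 that passed, with *Tie1* (-0.72) under -0.3, and a summed signal of 5633 in WT and 5309 in Tg. Of 6 hepatocyte markers, 5 were listed and only *Alb* passed, with 888.9 in WT and 1262 in Tg (0.51), while *Apoa1*, *Ttr*, *Fgb* and *Ahsg* were at or below 69.7 on both arrays. The summed signal of these 5, 1012 in WT and 1380 in Tg, was mostly that of *Alb*. Of the dim markers, *Apoa1* was higher in Tg and *Ttr*, *Fgb* and *Ahsg* were lower. The part of these cell types in the CYP2C values was not tested.

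The CYP4 family hydroxylates fatty acids and eicosanoids at or near the end of the chain, and 5 of 11 members passed. *Cyp4b1* had 3851 in WT and 4254 in Tg (0.14), and *Cyp4v3*, the counterpart of the human gene of Bietti crystalline dystrophy, had 3255 in WT and 3519 in Tg (0.11). *Cyp4f16* had 269.6 in WT and 276.0 in Tg (0.03). These 3 differed little between the arrays on their brightest probe sets, and the second probe sets of *Cyp4v3* and *Cyp4f16* gave -0.08 and -0.38. *Cyp4f13* had 428.0 in WT and 249.1 in Tg (-0.78), and *Cyp4f18*, which hydroxylates leukotriene B4 in neutrophils, had 222.4 in WT and 136.0 in Tg (-0.71). Both were lower on the Tg array while above the median on each.

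Some myeloid markers were lower in Tg, like *Cyp4f18*: of 8 macrophage markers, all passed, *Itgam* (-1.22), *Cd68* (-1.13) and *Mpeg1* (-0.79) were under -0.3 and none was over 0.3. Their summed signal was 47275 in WT against 38859 in Tg, and their part in the value of *Cyp4f18* was not tested. The CYP4A genes, textbook targets of PPARα in liver, stayed under the filter. *Cyp4a14* had 25.9 in WT and 18.5 in Tg, and *Cyp4a31* 17.6 and 52.1, so that these dim signals had no single direction. *Ppara* itself had 151.2 in WT and 591.0 in Tg (1.97).

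Of the CYP1 enzymes, which metabolise polycyclic hydrocarbons and estrogens, 2 of 3 passed. *Cyp1b1*, the form of tissues outside the liver, had 608.1 in WT against 793.8 in Tg (0.38) for the brighter of its probe sets and 238.2 against 218.2 (-0.13) for the other, so that its direction depended on the probe set. *Cyp1a1* had 240.8 in WT and 198.2 in Tg (-0.28), just short of the threshold, and *Cyp1a2* was under the filter at 2.2 and 5.0. Of their regulators, *Ahr* had 701.4 in WT and 831.0 in Tg (0.24), *Arnt*, its partner, 538.0 and 771.3 (0.52), while *Ahrr*, the repressor, was under the filter at 28.2 and 35.1.

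Among P450s of cholesterol and bile acid metabolism, 3 of 6 passed. *Cyp27a1*, the sterol hydroxylase of mitochondria, had 1521 in WT and 1801 in Tg (0.24). *Cyp7b1*, an oxysterol hydroxylase, had 180.0 in WT against 167.6 in Tg (-0.10) for the brighter probe set and 119.7 against 165.5 (0.47) for the other. *Cyp46a1*, the cholesterol hydroxylase of neurons, had 118.4 in WT against 75.6 in Tg (-0.65), and passed through its WT signal alone, so that a negative value was bound to result. *Cyp7a1*, the rate-limiting enzyme of bile acid synthesis, was under the filter at 76.1 in WT and 53.5 in Tg, as was *Cyp8b1*, which acts later in the same pathway, at 31.0 and 33.9. Of the 3 vitamin D enzymes, *Cyp2r1*, which makes the circulating form of the vitamin in liver, had 100.6 in WT and 88.2 in Tg (-0.19). *Cyp2r1* also passed through its WT signal alone, so that its negative sign was fixed by the filter. *Cyp27b1*, which activates the vitamin, and *Cyp24a1*, which breaks it down, were at or below 10.1. *Cyp20a1*, an orphan P450, had 1620 in WT against 1715 in Tg (0.08), the second probe set giving -0.43.

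None of the 5 listed steroid hormone synthesis genes passed. *Cyp11a1*, which opens the pathway by cutting the side chain of cholesterol, had 43.4 in WT and 33.8 in Tg, *Cyp17a1* 5.90 and 4.10, and *Cyp21a1* 28.2 and 24.9. *Star*, which carries cholesterol into mitochondria, passed with 161.5 in WT and 229.1 in Tg (0.50). Of 8 ovarian markers, examined because this depot adjoins the ovary, 7 were listed and 2 passed, *Gdf9* (-0.42) and *Foxl2* (-0.89). Over all 7 listed, the summed signal was 510.3 in WT against 452.3 in Tg. Of the dim markers in this sum, *Inha* and *Inhba* were higher in Tg, and *Fshr*, *Amh* and *Zp3* were lower. Both retinoic acid P450s listed, *Cyp26a1*, at 39.8 and 20.8, and *Cyp26b1*, at 34.9 and 79.6, were under the filter, as were all 5 CYP3A genes, among them *Cyp3a11*, the main form of mouse liver, at 23.5 and 24.2.

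**Figure D2:**
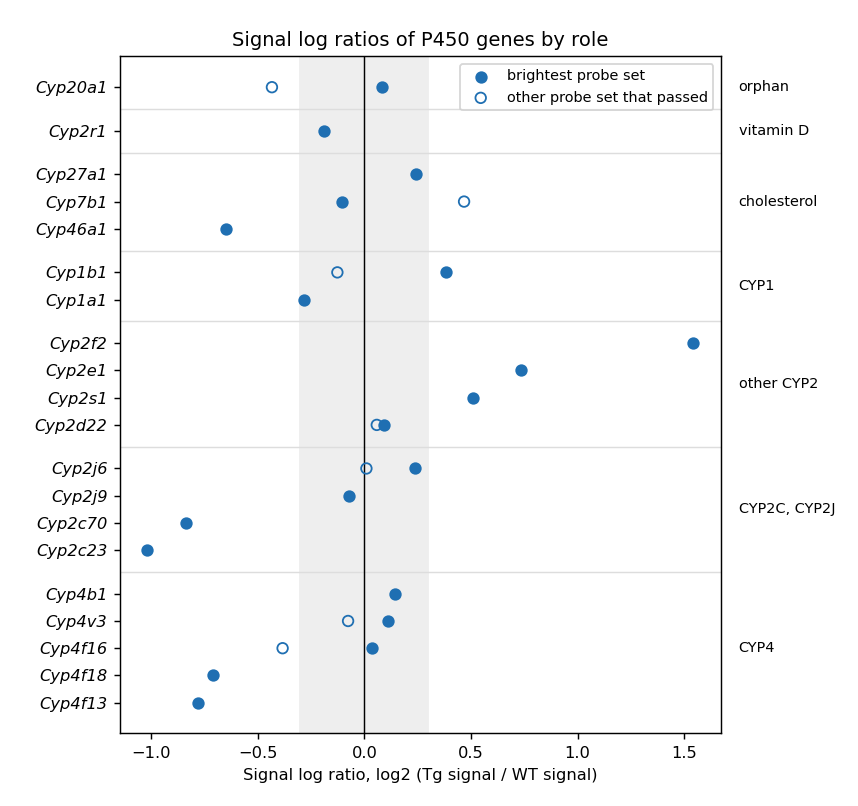
Tg over WT on the log2 scale for the 20 P450 genes that passed the filter, grouped by role. Filled points are the brightest probe set of a gene, open points its other probe set that passed, and the grey band covers -0.3 to 0.3. *Cyp2f2*, *Cyp2e1* and *Cyp2s1* lie to the right of the band, the CYP2C enzymes to its left, and *Cyp1b1*, *Cyp7b1*, *Cyp20a1*, *Cyp4f16* and *Cyp4v3* have points on both sides of 0.

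In all, 50 members were under the filter on both arrays. The higher of their 2 signals ran from 2.60 to 95.2, with a median of 30.2. Ratios of such signals were wide, and 24 of the 50 were past a 2-fold change, 29 being lower and 21 higher in Tg. Of all genes, 6606 were under the filter, and the same counts were not made for them, so that these numbers describe the members alone. No fold is read from them. *Cyp2b10*, the classical target of the constitutive androstane receptor, was the member with 3 dim probe sets that were all higher in Tg, at 46.0 and 65.9, 31.9 and 79.4, and 23.5 and 55.7, and it was named after its values were seen. The brighter 2 carry the suffix for sequences shared between transcripts, so that they may not be separate readings. The 3 dim probe sets of *Cyp11a1* differed in direction. The receptor itself, *Nr1i3*, was at 7.30 in WT and 2.70 in Tg.

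Many Cyp genes arose by tandem duplication and lie side by side in the genome. By their order in RefSeq, with gaps of at most 1000000 bases between starts, 47 of the 70 genes fell into 8 runs of at least 3, and 10 of these 47 passed the filter, as did 10 of the 23 other genes. Neighbours were often unlike in signal. In the run of 10 CYP2C genes from *Cyp2c55* to *Cyp2c70*, *Cyp2c70* at its end was the member that passed. In the run of 8 CYP2D genes it was *Cyp2d22*, also at an end. Away from the ends, *Cyp2j6* and *Cyp2j9* passed within the run of 5 CYP2J genes. *Cyp1a1* passed between *Cyp1a2* and *Cyp11a1*, which were under the filter. In the run from *Cyp2s1* to *Cyp2f2*, these genes at the ends passed, both over 0.3. The 6 members between them, *Cyp2b10*, *Cyp2b13*, *Cyp2b9*, *Cyp2b19*, *Cyp2g1* and *Cyp2a12*, were under the filter. Genes other than members were left out of these runs. *Cyp4b1* passed in a run with *Cyp4x1*, *Cyp4a14* and *Cyp4a31*, which were under it. *Cyp4f16* and *Cyp4f13* lie in 1 run of 5 and had 0.03 and -0.78.

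Of the 20 members, 7 had a second probe set that passed. In 6 of these 7, the second probe set had a lower signal log ratio than the brightest, by a median of -0.23 over the 7, and *Cyp7b1* was the exception. Over all 5260 genes with such a pair, the second was lower in 58.1%, with a median difference of -0.07. Between probe sets of the same gene, the pooled SD of the signal log ratio was 0.41 over these genes, wider than the threshold of 0.3. Of the 20 members, 8 were past this SD in either direction: *Cyp2f2*, *Cyp2e1*, *Cyp2s1* and the 5 lower genes, a share of 40% against 21.8% of all genes that passed. *Cyp1b1* was not among them. None of these 8 had a second probe set that passed, so that their own values could not be compared between probe sets. Of these 8, *Cyp2f2* and *Cyp46a1* passed the filter through 1 array alone, so that their direction was fixed by it. For the bacterial poly-A controls, labelled with the sample RNA, the 5′ probe set had a lower value than the 3′ probe set in 4 of 4 pairs, with a median difference of -0.55, and the part of this difference between the arrays in the P450 values was not tested.

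**Figure D3:**
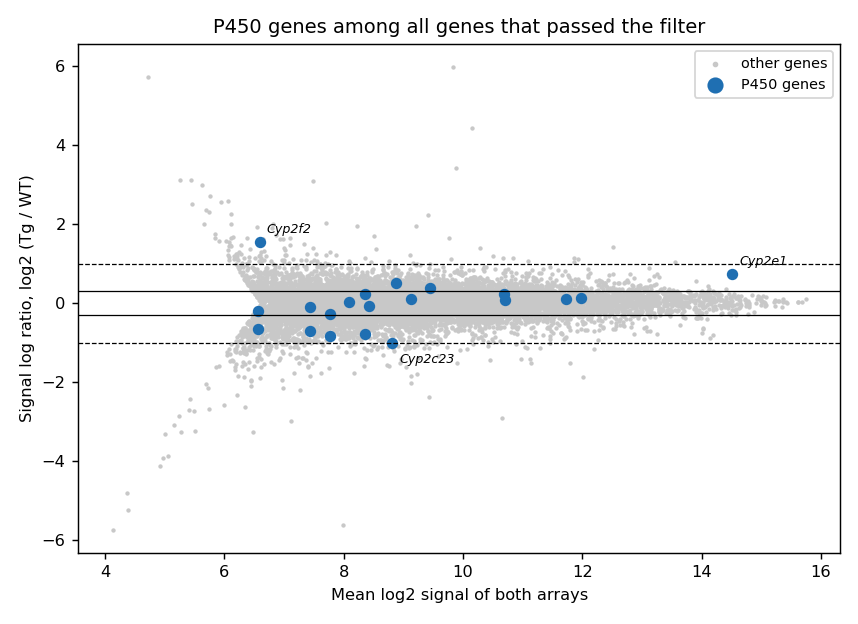
Signal log ratio of 11587 genes past the filter, plotted against the average log2 signal of the arrays, with the 20 P450 genes as large points. Solid lines mark 0.3 and -0.3 and dashed lines 1 and -1. *Cyp2f2* lies above the upper dashed line among dim genes, *Cyp2c23* just under the lower one, and *Cyp2e1* stands above the narrow band of the brightest genes.

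Genes that serve the P450s were taken from 6 lists. Of their 44 genes, 40 were listed and 31 passed, of which 5 were over 0.3, 3 were under -0.3 and 23 lay between, with a median of 0.06. Of all genes that passed, 16.6% were over 0.3 and 16.9% under -0.3, so that the share over 0.3 was close to that of all genes. Of 7 electron transfer partners that passed, *Pgrmc1*, a haem-binding partner of P450s, had 6797 in WT against 8661 in Tg (0.35), and the other 6, among them *Cyb5a*, *Cyb5r3* and *Fdx1*, the ferredoxin of the mitochondrial P450s, ran from -0.29 to 0.15. The 7 haem synthesis genes that passed all lay from 0.02 to 0.26, including *Alas1* (0.07), the rate-limiting enzyme, and *Fech* (0.22), which inserts the iron. Of 3 haem breakdown genes that passed, *Blvra*, biliverdin reductase, was under -0.3 at -0.39.
The P450s that carry other symbols all passed. *Cyp51*, the demethylase of cholesterol synthesis, had 680.3 in WT and 683.2 in Tg (0.01). *Ptgis*, prostacyclin synthase, had 2671 in WT and 2959 in Tg (0.15). *Tbxas1*, the thromboxane synthase of platelets and macrophages, had 439.4 in WT against 280.8 in Tg (-0.65), beside the macrophage markers above, of which 3 of 8 were under -0.3, and their part in its value was not tested. Of 14 receptors and regulators of Cyp genes, 7 passed, and *Ppara*, *Arnt* and *Rxrb* (0.40), a partner of nuclear receptors, were over 0.3. *Nr1i2*, the xenobiotic receptor that drives CYP3A genes, was at 38.7 in WT and 35.4 in Tg. Of 4 steroid partners that passed, *Star* was over 0.3 and *Hsd11b1*, which regenerates corticosterone, was at 2317 in WT and 1818 in Tg (-0.35).

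**Figure D4:**
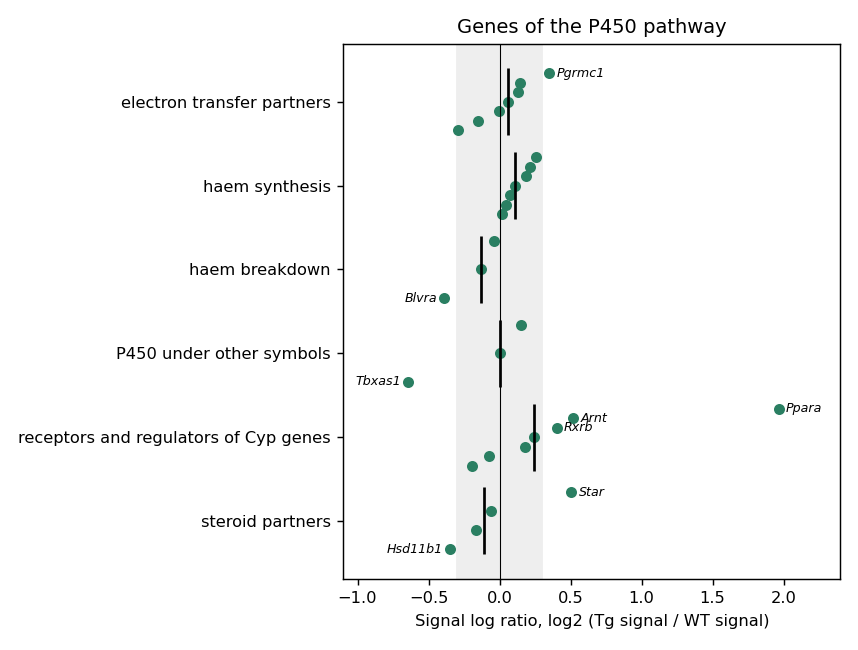
Tg over WT on the log2 scale for the 31 genes of the P450 pathway that passed the filter, 1 point per gene and 1 row per list. Vertical bars are medians, the grey band covers -0.3 to 0.3, and genes outside it are named. Most points lie within the band, and *Ppara* at 1.97 stands apart.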

How the data were processed

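Transcript levels were measured on arrays in perigonadal WAT of HFD-fed PeriA Tg and WT mice, with 1 pool of RNA and 1 array for each genotype, grouped by the genotype in the labels. The deposited intensity values are signals that the authors made with GeneChip Operating Software from perfect-match and mismatch probes (MAS5 in the submitters' processing notes, no version given), on a linear scale and scaled for each array. Without the lowest and highest 2% of signals, each array had a mean of 500.0. Dim signals can be very small where mismatch probes are as bright, so that their ratios are unstable. The Present calls of the authors' own filter were not used here.

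Ratios of Tg to WT on the log2 scale were computed from the 45037 probe sets other than 64 controls, without pseudocount or further normalization. Of these, 34945 had 1 symbol in the platform annotation, 932 several and 9160 were not listed. All 70 member symbols were the RefSeq symbols of the same gene IDs. The higher signal had to reach 98.2, in place of the Present call. No test is possible with 1 array per genotype, and the number of arrays limits the precision. Every member that passed is named, and of the others the best-known enzymes of each role. The members, role groups, lists and alternatives were chosen with earlier results of these data known. The script was tested on simulated data with known ratios. Python 3.11.15, numpy 2.4.6, pandas 2.3.3, statsmodels 0.14.6 and matplotlib 3.10.9 were used.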

Additional observations from a re-analysis of the deposited data

How the results depend on the processing

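Under median centring of the log2 ratios, quantile normalization, loess with a span of 0.3, a pseudocount of 25.1 and a floor of 56.9, 4 members were over 0.3 and 5 under -0.3, as with the signals as deposited. In these settings, 15.2% to 18.1% of all genes that passed were over 0.3 and 15.7% to 16.9% under -0.3. Without the filter, all 70 genes counted and 21 were over 0.3 and 28 under -0.3, against 4468 and 4548 of all 18193 genes. With a filter at 470.5, the 75th percentile of all signals, 9 members were left, of which 3 were over 0.3 and 1, *Cyp2c23*, under -0.3, against 14.1% and 11.5% of all genes. Read from the second-brightest probe set, which 7 members had, 1 was over 0.3 and 2 were under -0.3, against 17.0% and 25.8% of all genes with such a probe set, and *Cyp1b1* was reversed at -0.13. When both signals had to reach 98.2, 3 of 17 were over 0.3 and 4 under -0.3, against 15.4% and 14.6% of all genes. With the probe sets of other P450 symbols added, 4 of 23 were over 0.3 and 6 under -0.3, against 16.6% and 16.9% of all genes. With the median over probe sets, these were 3 of 20 and 5 of 20, against 14.8% and 19.5% of all genes. Without probe sets whose suffix marks sequences shared between transcripts, 3 of 17 were over 0.3 and 4 under -0.3. The shares of all genes were then 17.2% and 18.1%. In that setting *Cyp2f2*, *Cyp2c23* and *Cyp1a1* dropped out, and *Cyp4v3* was at -0.08. With each array divided by its own median, chosen after the values were seen, the genes over 0.3 made up 65.6% of all genes past the threshold, against 49.6% as deposited. The median of the members ran from -0.14 without the filter to 0.14 at the stricter filter and after that scaling. The cause of these differences was not tested beyond the number of genes that each setting leaves. Leaving out a replicate was not possible with 1 array per group. No paired analysis was possible because each genotype has 1 array. Signal over background limits the dim members: *Cyp2f2*, *Cyp2r1* and *Cyp46a1* each had 1 signal under the median of the arrays.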

Other observations

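Some probe sets of P450 genes fall outside the naming rule. A probe set annotated to *Cyp4f37* and *Cyp4f16* together had 324.2 in WT and 194.3 in Tg, a log2 ratio of -0.74, while the probe sets of *Cyp4f16* alone had 0.03 and -0.38. The probe sets shared by *Cyp2a4* and *Cyp2a5*, by *Cyp3a41a* and *Cyp3a41b* and by *Cyp4a10* and *Cyp4a31* had signals of at most 40.5. *Cyp4a12a*, whose symbol ends in a letter, had 1.70 in WT against 6.90 in Tg, and the pseudogene *Cyp4f41-ps* had 17.7 and 33.3.

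Mesothelial markers, which cover the surface of this depot, had a median log2 ratio of 0.25 over 6 of 6 that passed, and *Wt1* (0.70) and *Upk1b* (0.46) were over 0.3. Smooth muscle and pericyte markers had -0.26 over 6 of 6, with *Cnn1* (-0.76) and *Myh11* (-0.37) under -0.3, and fibroblast markers had 0.05 over 7 of 7. Of 6 markers of kidney and uterine epithelium, 2 passed, *Krt8* (0.17) and *Krt18* (0.60). Of 4 adrenal markers listed, *Star* and *Mc2r* (0.08) passed, while *Hsd3b1* and *Nr5a1* were at or below 39.8 on both arrays.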
